A study of Mus musculus with 4 samples.

Results

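The genes examined here encode the receptors through which leukocytes bind the constant (Fc) part of IgG and IgE, together with their shared signalling chain. The members were chosen by symbol (Fcer2a, Fcgr2b, Fcgr1, Fcgr3, Fcgr4, Fcer1g and Fcgrt), and all probe sets that the platform annotation assigns to 1 of them were taken. They were 7 of the 17097 genes with a named probe set, and 12 of the 45037 probe sets compared. For each gene the brightest probe set, by its mean over all 4 arrays, stood for the gene, and all 7 of these lay above the 40th percentile of mean signal.

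RNA came from B cells of lymph nodes of male Balb/C mice aged 6 to 8 weeks. The miR-146a transgenic (TG) group held 2 mice and the wild type (WT) group held 2 mice, with 1 array per mouse. In both groups B cells were obtained by magnetic removal of the other cells and by depletion of dead cells. The promoter that drives the transgene and the number of founder lines are unknown from the labels. The microRNA that the transgene over-expresses is shown with its seed, bases 2 to 8, in capitals, as RefSeq gives it for GRCm38.p6 (chr11:43374435-43374456, minus strand).
mmu-miR-146a-5p: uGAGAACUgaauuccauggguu

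Fc receptors translate antibody binding into activation or restraint of a cell. The activating receptors for IgG (Fcgr1, Fcgr3 and Fcgr4) sit on macrophages, monocytes, neutrophils or natural killer cells and signal through the common gamma chain Fcer1g, which carries an activating tyrosine motif (ITAM). Fcgr2b carries an inhibitory motif (ITIM), is the classical IgG Fc receptor of B cells and damps B cell receptor signalling, although myeloid cells carry it too. Fcer2a, the low-affinity IgE receptor CD23, is a C-type lectin of mature follicular B cells, and Fcgrt is the neonatal Fc receptor FcRn, which protects IgG from degradation inside endosomes. Fcgr2b, Fcgr4 and Fcgr3 lie in this order on chromosome 1 in RefSeq, and Fcer1g lies on the same chromosome, whereas Fcgr1, Fcgrt and Fcer2a lie on chromosomes 3, 7 and 8.

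The window of 250 bases before to 50 bases after the start of transcription is shown for the B cell receptors and the ligand-binding myeloid ones, to set them side by side. The windows are RefSeq's for GRCm38.p6, 5′ to 3′, with 1 of 3 annotated starts shown for Fcer2a (the one that holds a match) and 1 of 2 for Fcgr3. Capitals mark every match, on either strand, to the 2 STAT spacings (TTC and GAA with 3 or 4 free bases between them), the PU.1 core GAGGAA, the octamer ATGCAAAT, the EBF core (CCC and GGG with 2 free bases) and an NF-kB form (GGGA and CC with 4 free bases). In Fcgr3 the NF-kB and EBF matches overlap.
Fcer2a, the second start (chr8:3690812-3691111, minus strand): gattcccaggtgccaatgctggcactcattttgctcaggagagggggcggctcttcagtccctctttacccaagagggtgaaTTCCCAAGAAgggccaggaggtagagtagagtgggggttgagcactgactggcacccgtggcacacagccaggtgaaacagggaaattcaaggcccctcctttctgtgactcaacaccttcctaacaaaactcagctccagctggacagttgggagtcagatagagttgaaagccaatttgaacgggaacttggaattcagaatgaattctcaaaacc
Fcgr2b (chr1:170976022-170976321, minus strand): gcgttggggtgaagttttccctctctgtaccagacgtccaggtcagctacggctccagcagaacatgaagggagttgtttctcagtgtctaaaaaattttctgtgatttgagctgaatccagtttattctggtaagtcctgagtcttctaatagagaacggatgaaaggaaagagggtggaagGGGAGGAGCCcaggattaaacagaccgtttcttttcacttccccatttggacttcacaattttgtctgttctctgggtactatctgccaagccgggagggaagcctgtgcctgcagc
Fcgr1 (chr3:96293920-96294219, minus strand): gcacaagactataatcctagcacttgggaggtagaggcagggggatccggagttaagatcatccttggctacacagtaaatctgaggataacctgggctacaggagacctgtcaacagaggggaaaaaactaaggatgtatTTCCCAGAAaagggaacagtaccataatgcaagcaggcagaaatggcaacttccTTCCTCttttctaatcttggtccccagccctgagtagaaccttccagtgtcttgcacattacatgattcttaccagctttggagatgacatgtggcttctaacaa
Fcgr3, the first start (chr1:171059354-171059653, minus strand): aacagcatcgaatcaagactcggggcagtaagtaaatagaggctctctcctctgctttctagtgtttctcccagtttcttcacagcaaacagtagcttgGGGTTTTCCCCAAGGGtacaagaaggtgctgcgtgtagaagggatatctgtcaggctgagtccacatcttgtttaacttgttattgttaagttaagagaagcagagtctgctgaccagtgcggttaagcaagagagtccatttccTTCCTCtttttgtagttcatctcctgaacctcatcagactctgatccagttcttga
Fcgr4 (chr1:171018676-171018975, plus strand): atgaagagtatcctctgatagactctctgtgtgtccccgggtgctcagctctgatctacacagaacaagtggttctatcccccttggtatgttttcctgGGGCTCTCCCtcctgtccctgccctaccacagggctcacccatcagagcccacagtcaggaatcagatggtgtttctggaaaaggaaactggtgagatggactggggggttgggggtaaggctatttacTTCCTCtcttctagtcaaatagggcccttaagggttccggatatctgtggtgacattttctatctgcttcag

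PU.1 is a transcription factor that both myeloid cells and B cells use. Its core, read as TTCCTC on the strand shown, stood in the windows of Fcgr1, Fcgr3 and Fcgr4, the 3 ligand-binding activating IgG receptors. The match began 55 bases before the start in Fcgr1, 6 bases before it in Fcgr3 and 22 bases before it in Fcgr4. No match to this core was found in the windows of Fcer2a (3 starts), Fcgr2b, Fcer1g or Fcgrt. Of 32851 promoter windows of this length, 28.3% hold the PU.1 core. The STAT spacing with 3 free bases stood in Fcgr1 as TTCCCAGAA (8.3% of all windows), and the one with 4, which STAT6 prefers, stood in Fcer2a as TTCCCAAGAA (6.95%). The NF-kB form matched in Fcgr2b, Fcgr3, Fcgr4 and Fcer1g (20.7% of windows), the EBF core in Fcgr3 and Fcgrt (13.7%), and the octamer in none of the member windows (1.74%). These matches describe letters in the windows and were not tested as binding sites.

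Before the receptors, the arrays themselves are described. TG mouse 1 gave the dimmest array, with a median of 4.48 and an upper quartile of 6.13, where the arrays of TG mouse 2 and the WT mice had medians of 4.59 to 4.61 and upper quartiles of 6.51 to 6.55. On its array the 3′ probe set of beta-actin stood 0.47 above the mid-transcript one, against 0.15 for TG mouse 2 and 0.14 to 0.16 for the WT mice, a sign of RNA quality whose part in the results was not tested. TG mouse 2 gave the higher value of the TG pair for 74.2% of all genes, with a median excess of 0.18 log2. The paired TG arrays differed more from each other (SD of their difference over genes 0.308) than the paired WT arrays (0.113). Although all mice are labelled male, Xist, the non-coding RNA of X inactivation in females, stood at 9.13 and 9.56 on the TG arrays and at 5.96 and 6.19 on the WT arrays. The Y-linked gene Eif2s3y was present on all 4, at 7.80 and 8.00 on the TG arrays and at 8.29 and 8.34 on the WT arrays. The source of the Xist signal cannot be told apart from genotype, because both TG arrays carry it. All values are the authors' deposited log2 signals, and non-specific control probe sets averaged 2.85 to 2.95 on the TG arrays and 2.83 to 2.84 on the WT arrays.

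The labelled cell type was checked against marker lists that hold none of the 7 receptors. As a background, 31.4% of all genes were lower on the TG arrays and 17.7% higher with no overlap between groups. All 13 measured B cell markers were lower on the TG arrays with no overlap between groups, by -1.41 (Cd79a) to -0.34 (Pax5) with a median of -0.94. Their summed linear signal was 9051 and 10280 on the TG arrays, against 17760 and 18440 on the WT arrays. Of 12 neutrophil markers 11 were higher without overlap (summed signal 1705 and 2356 on the TG arrays, 451.9 and 446.4 on the WT arrays), and none was near the non-specific controls on all arrays. Of 13 monocyte or macrophage markers 7 were higher without overlap and none lower, with a median difference of 0.22. Their summed signal was 1820 and 2213 on the TG arrays and 1445 and 1416 on the WT arrays. The brightest, Lyz2 (10.42 and 10.71 in TG mice, 10.05 and 10.01 in WT mice), held most of that sum. Cd163 lay within 0.5 of the non-specific controls on every array. T cell markers were abundant on all arrays (summed signal 13720 and 15390 on the TG arrays, 10840 and 11070 on the WT arrays), 8 of 9 of them higher without overlap and Cd4 lower. The 9 natural killer cell markers went both ways, 5 higher and 2 lower without overlap (median 0.28), with Klra8 near the non-specific controls. So did the 6 dendritic cell markers, 3 higher and 3 lower without overlap (median -0.14). In RNA from a cell population, fewer cells of a type and less RNA per cell cannot be told apart.

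The comparison asked whether the Fc receptors of B cells and those of myeloid cells differed between TG and WT B cell preparations. The brightest probe sets of both B cell receptors were lower on the TG arrays by about the same amount, Fcer2a 2.02-fold and Fcgr2b 2.01-fold, and their TG and WT values did not overlap. The 4 myeloid members had a median difference of 0.17, against -1.01 for the B cell pair and -0.053 over all genes. The myeloid median was -0.01 without TG mouse 2 and 0.32 after quantile normalization, so its sign rests on that mouse. No member passed an adjusted p of 0.05 in the limma fit over 45037 probe sets, in which 0.0351% of genes were called higher and 0.0117% lower. At an unadjusted p under 0.05, 2 members were lower (Fcer2a and Fcgr2b) and 0 higher, where 10.2% of genes were lower and 3.83% higher. Of the 7 genes 2 were lower and 2 higher without overlap, where 31.4% of all genes were lower and 17.7% higher without overlap.

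**Figure D1:**
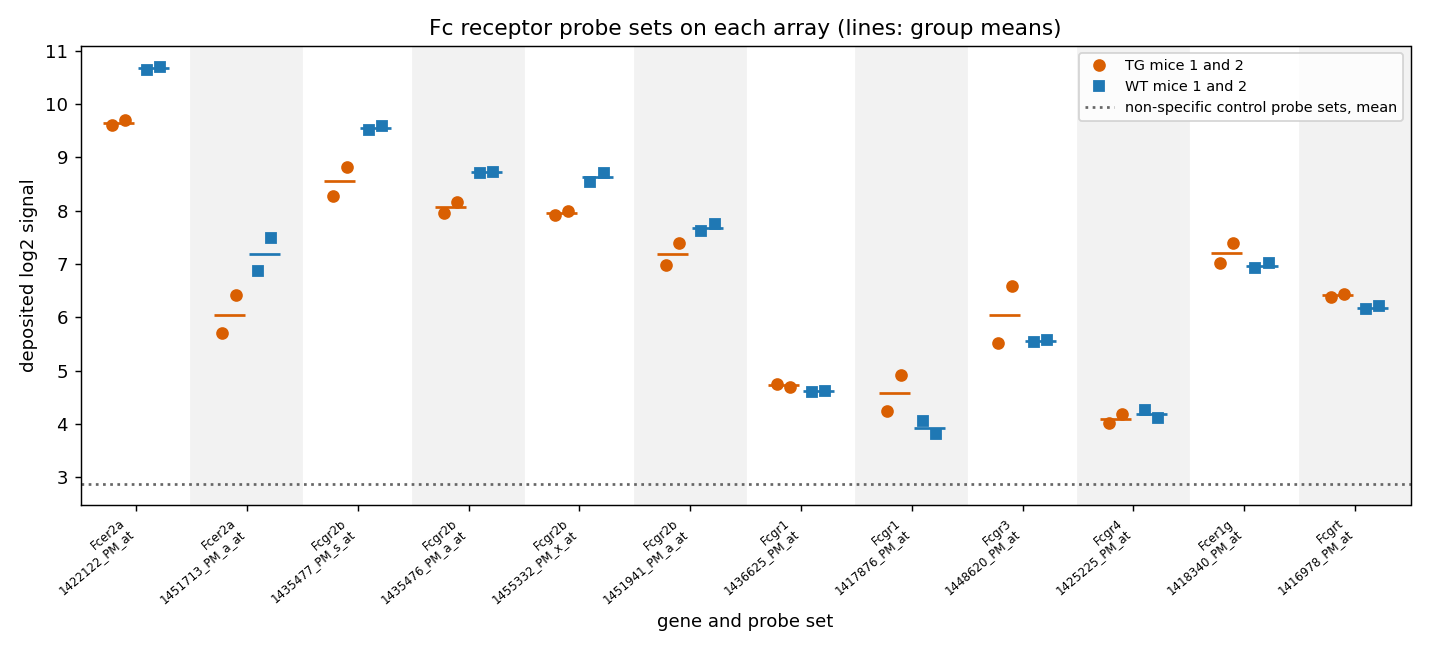
Deposited log2 signal (vertical axis) of the 12 Fc receptor probe sets (horizontal axis) on each array, TG mice as circles and WT mice as squares, with a line at each group mean and a dotted line at the mean of the non-specific control probe sets. All 6 probe sets of Fcer2a and Fcgr2b have both TG values below both WT values, and for Fcgr3 TG mouse 2 alone stands above the other arrays.

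Fcer2a, the IgE receptor CD23, gave 9.61 and 9.70 on the TG arrays and 10.64 and 10.70 on the WT arrays (probe set 1422122_PM_at). The mice of each group lay within 0.09 of each other, and the groups were about 1 log2 unit apart. The mean was 9.65 ± 0.06 in TG mice and 10.67 ± 0.04 in WT mice (SD, n = 2 each), a difference of -1.02 (95% interval -1.28 to -0.75, limma adjusted p = 0.0935). Its dimmer probe set, 1451713_PM_a_at, gave 5.70 and 6.41 on the TG arrays and 6.87 and 7.49 on the WT arrays. Here the mice of each group lay further apart, and the groups still did not overlap (difference -1.13, SE 0.32, limma adjusted p = 0.278).

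Fcgr2b, the inhibitory IgG receptor, gave 8.27 and 8.82 on the TG arrays and 9.52 and 9.59 on the WT arrays (1435477_PM_s_at). The TG mice differed from each other by 0.54, less than the difference between groups (-1.01, 95% interval -1.54 to -0.48, limma adjusted p = 0.193). The lower value was that of TG mouse 1, the array with the higher beta-actin 3′ excess, and without it the difference was -0.74. The other 3 probe sets were lower by less: 1455332_PM_x_at by -0.67, 1435476_PM_a_at by -0.66 and 1451941_PM_a_at by -0.49 (limma adjusted p 0.159 to 0.337). On each of the 4 the TG values lay below the WT values. In the platform's naming the endings s_at and x_at mark probe sets that may also bind related transcripts, and Fcgr2b and Fcgr3 are close relatives in their extracellular part. Whether binding of related transcripts had a part in these values was not tested. The size of the Fcgr2b difference depended on the probe set, and as the mean of all 4 it was -0.71.

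Both B cell receptors passed the threshold after quantile normalization of the arrays (Fcer2a -0.89, limma adjusted p = 0.035; Fcgr2b -0.86, adjusted p = 0.0376), where 1.01% of genes were called lower and 1.33% higher. Fcer2a also passed after median centring (-0.96, limma adjusted p = 0.025). Without TG mouse 1 the differences were -0.97 for Fcer2a and -0.74 for Fcgr2b, and without TG mouse 2 they were -1.06 and -1.28. In these 2 fits the spread came from the WT pair, and the lone TG array was assumed to vary like it, so only sizes are given here. Without WT mouse 1 or WT mouse 2 the sizes held (Fcer2a -1.04 and -0.99, Fcgr2b -1.04 and -0.98). There the spread came from the TG pair, so again only sizes are given.

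Fcgr3, the activating IgG receptor CD16, was high in 1 mouse. It gave 5.51 and 6.58 on the TG arrays and 5.54 and 5.58 on the WT arrays (1448620_PM_at). TG mouse 1 lay just below both WT mice, and TG mouse 2 lay about 1 log2 unit above them, so the groups overlapped. The difference of 0.49 had a 95% interval of -0.46 to 1.43 (limma adjusted p = 0.593). It was 1.02 without TG mouse 1 and -0.05 without TG mouse 2.

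Fcer1g, the gamma chain that Fcgr1, Fcgr3 and Fcgr4 share with the mast cell IgE receptor, gave 7.01 and 7.39 on the TG arrays and 6.92 and 7.02 on the WT arrays. TG mouse 1 lay between the WT mice and TG mouse 2 above them. The difference was 0.23 (95% interval -0.19 to 0.65, limma adjusted p = 0.573), 0.42 without TG mouse 1 and 0.04 without TG mouse 2.

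Fcgr1, the high-affinity IgG receptor CD64, differed in size between its 2 probe sets. The brighter one (1436625_PM_at) gave 4.74 and 4.70 on the TG arrays and 4.60 and 4.61 on the WT arrays, higher in TG without overlap but by only 0.11 (95% interval -0.14 to 0.36, limma adjusted p = 0.632). The other (1417876_PM_at) gave 4.24 and 4.91 on the TG arrays and 4.05 and 3.81 on the WT arrays, also without overlap (difference 0.65, SE 0.25, limma adjusted p = 0.37). TG mouse 2 carried most of the second difference. As the mean of both probe sets the difference was 0.38 (adjusted p = 0.358).

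Fcgr4, an activating IgG receptor of monocytes, macrophages and neutrophils, gave 4.01 and 4.18 on the TG arrays and 4.26 and 4.11 on the WT arrays. The groups overlapped, and the difference of -0.10 had a 95% interval of -0.41 to 0.22 (limma adjusted p = 0.753). Its low signal, as that of the brighter Fcgr1 probe set, stood less than 2 log2 units above the non-specific controls, where differences can be understated. Whether they were was not tested, and the dimmer Fcgr1 probe set differed by more (0.65). Fcgrt, the neonatal Fc receptor, gave 6.38 and 6.44 on the TG arrays and 6.15 and 6.21 on the WT arrays. Both TG mice lay above both WT mice by a small margin (difference 0.23, 95% interval -0.03 to 0.49, limma adjusted p = 0.41).

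TG mouse 2 gave a higher value than TG mouse 1 on 11 of the 12 member probe sets, the exception being the brighter one of Fcgr1. That share is read beside the 74.2% of all genes that were higher in TG mouse 2. The gap between the TG mice was widest for Fcgr3 (1.07) and narrowest for the brighter Fcgr1 probe set (0.03).

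**Figure D2:**
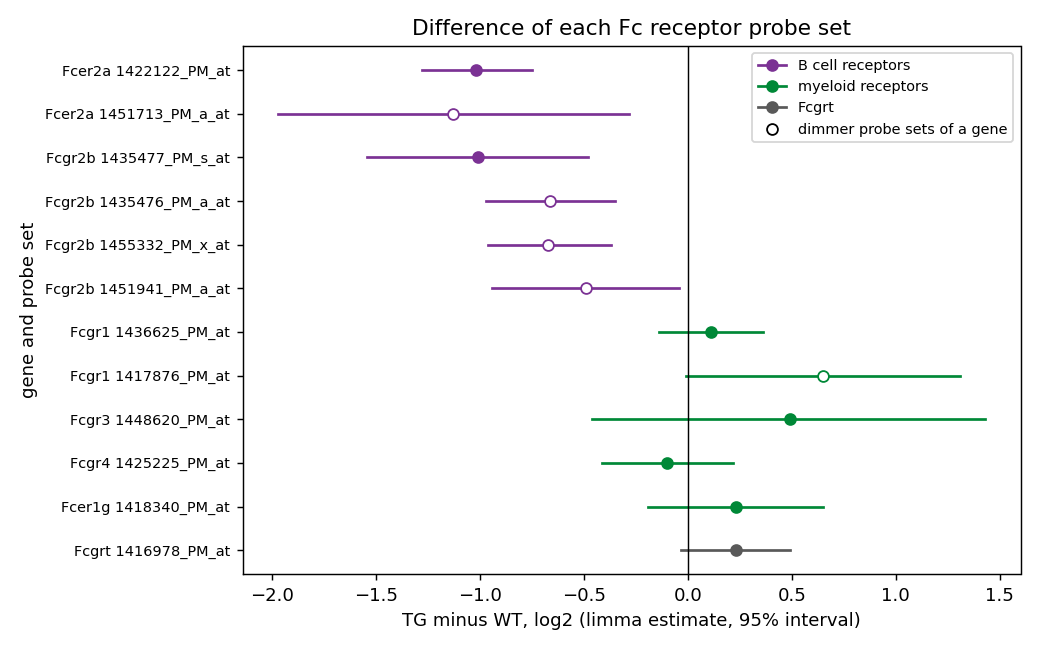
TG minus WT difference in log2 signal (horizontal axis, limma estimate with its 95% interval) of each Fc receptor probe set (vertical axis), coloured by the cells the receptor is known from, with open circles for the dimmer probe sets of a gene. The 6 intervals of Fcer2a and Fcgr2b lie below 0, and those of the myeloid members and Fcgrt include 0.

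The B cell and myeloid receptors were then set against each other on the same array. This removes an offset common to all signals of an array, but not a shift that differs between bright and dim genes. The array of TG mouse 1 was lower by more at the upper quartile (6.13) than at the median (4.48). Both B cell receptors were brighter than the myeloid ones, and the part of such a shift was not tested. For each of the 8 pairs of a B cell and a myeloid member, the log2 signal of the B cell gene minus that of the myeloid gene was lower on both TG arrays than on both WT arrays. For the inhibitory against the activating low-affinity IgG receptor, Fcgr2b minus Fcgr3, it was 2.76 and 2.24 in TG mice and 3.98 and 4.01 in WT mice. Both TG mice had the smaller excess of Fcgr2b, in mouse 1 through a lower Fcgr2b and in mouse 2 through a higher Fcgr3 as well. Fcer2a minus Fcer1g was 2.60 and 2.30 in TG mice and 3.73 and 3.67 in WT mice. The differences between groups ran from -1.5 for both pairs with Fcgr3 to -0.91 for Fcgr2b against Fcgr4. The exact two-sided permutation p was 0.333 for every pair, the smallest that 2 against 2 mice allow, and it stays 0.333 after Benjamini-Hochberg adjustment over the 8. The pairs share genes and are not independent. Their direction follows from the values of the members given above, so the 8 pairs add no separate support. The level of such a difference depends on the probes, so it is read only between arrays.

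The receptors were also set against the B cell markers of the same array. Each probe set was first centred on its own WT mean, and the median of the 13 centred markers was then -1.06 and -0.76 on the TG arrays and -0.02 and 0.02 on the WT arrays. Fcer2a less this median was 0.00 and -0.21 in TG mice and within 0.01 of 0 in both WT mice. Fcgr2b less it was -0.22 and 0.02 in TG mice and -0.01 and 0.01 in WT mice. For the brightest probe set of each gene 1 TG mouse lay at the WT level and the other about 0.2 below it. The mean differences were -0.11 and -0.10, in place of -1.02 and -1.01 as deposited. The dimmer Fcgr2b probe sets (-0.67, -0.66 and -0.49 as deposited) differed by less than the marker median (-0.91), so this closeness depends on the probe set. The dimmer Fcer2a probe set (-1.13) differed by more than that median. A gene with equal signal in both groups would show 0.91 on this scale. Fcer1g and Fcgrt (1.14 each), Fcgr1 (1.02) and Fcgr3 (1.4) lay above that value and Fcgr4 (0.82) below it. The part of B cell content in the lower signals of Fcer2a and Fcgr2b was not tested beyond these values.

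**Figure D3:**
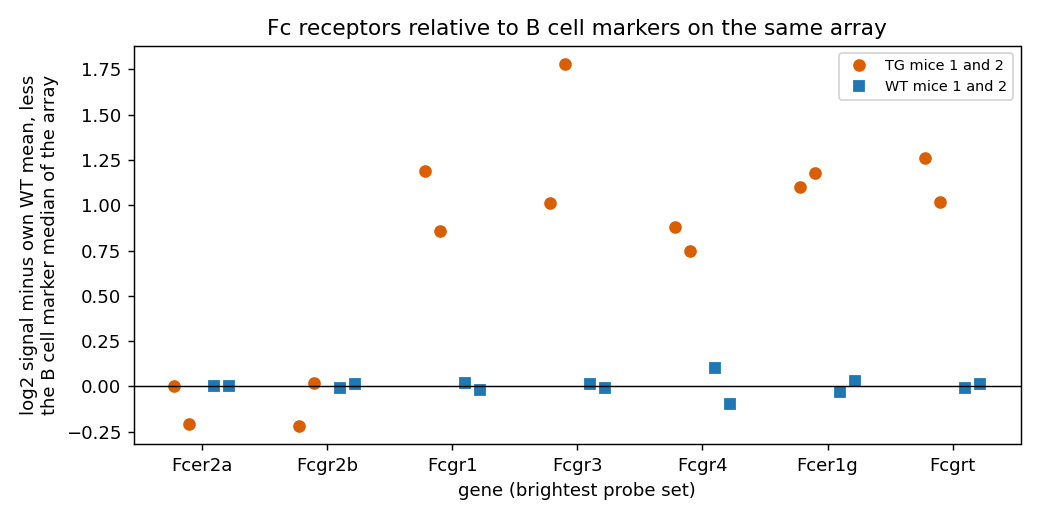
Log2 signal of the brightest probe set of each Fc receptor (horizontal axis) centred on its own WT mean, less the median of 13 B cell markers centred the same way on that array (vertical axis), for TG mice as circles and WT mice as squares. For Fcer2a and Fcgr2b 1 TG mouse lies at the WT level and the other slightly below it, and for the other 5 genes both TG mice lie above the WT mice.

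Other Fc receptors and their relatives differed in both directions. Of 9 measured, 5 were lower and 2 higher without overlap, none passed the threshold and the median difference was -0.11. The shares without overlap over all genes were 31.4% lower and 17.7% higher. Fcrl1, a B cell activating relative of the Fc receptors, gave 8.24 and 8.69 on the TG arrays and 9.64 and 9.71 on the WT arrays (difference -1.22, limma adjusted p = 0.137). Fcrla, an intracellular relative in B cells that is also in the B cell marker list, differed by -0.94 (limma adjusted p = 0.187). Pigr, which carries polymeric immunoglobulin across epithelia, differed by -0.50, Fcamr, a receptor for IgA and IgM, by -0.14, and Trim21, a cytosolic antibody receptor, by -0.11. Fcrls, a macrophage-associated relative, differed by 0.14. Fcgbp, an IgG Fc-binding protein of mucus, and Ms4a2, the beta chain of the high-affinity IgE receptor, had overlapping groups (-0.09 and 0.08).

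Fcer1a, the IgE-binding chain of that receptor on mast cells and basophils, gave 3.97 and 4.04 on the TG arrays and 2.57 and 2.59 on the WT arrays, where it lay below the mean of the non-specific controls. The WT values are therefore no measured level, and the size of the difference is not well defined (limma adjusted p = 0.0678). Of the other chains of this receptor, Ms4a2 and Fcer1g had overlapping groups. Among the 7 mast cell or basophil markers other than Fcer1a and Ms4a2, 5 were higher and 1 lower without overlap (median 0.24, summed signal 353.0 and 522.6 on the TG arrays, 214.8 and 197.0 on the WT arrays), with Mcpt8 near the non-specific controls. Of all genes 17.7% were higher and 31.4% lower without overlap. Cpa3, a mast cell protease, gave 6.71 and 7.45 on the TG arrays and 4.79 and 4.66 on the WT arrays. The part of these cells in the Fcer1a and Fcer1g signals was not tested.

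Among 28 measured genes of ITAM and ITIM signalling, 13 were lower and 5 higher without overlap, none passed the threshold, and the median was -0.36. Over all genes 31.4% were lower and 17.7% higher without overlap. The 4 with the smallest p were all lower: Btk, a Tec family kinase (-1.07), Dok3, an inhibitory adaptor (-1.33), Pik3ap1, a PI3-kinase adaptor of B cells (-0.91), and Blnk, the B cell linker that is also in the B cell marker list (-0.85), with limma adjusted p between 0.0935 and 0.129. Among 13 partners and regulators of CD23, 6 were lower and 2 higher without overlap (median -0.09). Ebf1, a B cell transcription factor, differed by -1.28, Cr2, the complement receptor CD21 that binds CD23, by -0.71, and Traf2, a signalling adaptor, by -0.54 (limma adjusted p 0.136 to 0.267), and Ebf1 and Cr2 are also B cell markers here. Il4ra, the IL-4 receptor chain through which CD23 is induced, differed the other way, by 0.55 (limma adjusted p = 0.217).

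Partners of FcRn and its endosomal route showed no common direction, with 2 lower and 2 higher without overlap among 8 (median -0.01). Snx4 (-0.42) and Exoc6 (-0.82), which act in endosome recycling and exocytosis, were lower, Myo5b, a motor of recycling endosomes, was higher (0.31), and Rab4a, of rapid recycling, had overlapping groups (0.31). Among 11 phagocytosis effectors 6 were lower without overlap and 0 higher (median -0.18). The counts of this list and of the FcRn list are read beside 31.4% lower and 17.7% higher over all genes. Cybb, the catalytic subunit of the phagocyte NADPH oxidase, gave 8.02 and 8.25 on the TG arrays and 9.58 and 9.57 on the WT arrays (difference -1.44, limma adjusted p = 0.081). The oxidase subunits Ncf4 (-0.29) and Cyba (-0.23) and the guanine exchange factor Dock2 (-0.18) differed by less (limma adjusted p 0.433 to 0.494). None of these 3 lists had a member past the threshold.

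**Figure D4:**
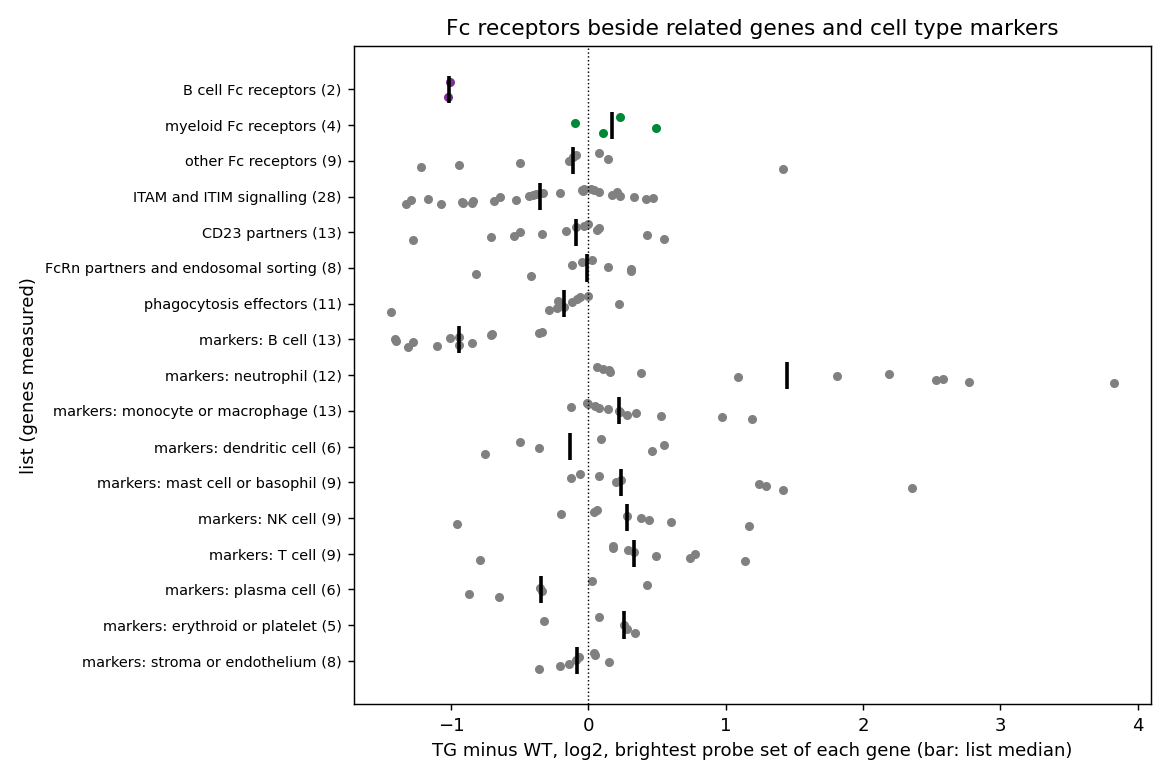
TG minus WT difference in log2 signal (horizontal axis) of the B cell and myeloid Fc receptors, of related gene lists and of cell type marker lists (vertical axis, number of measured genes in brackets), with 1 point per gene and a bar at each list's median. The B cell Fc receptors lie at -1.01 and -1.02 within the range of the B cell markers (-1.41 to -0.34), and the myeloid Fc receptors (-0.10 to 0.49) overlap the monocyte or macrophage markers.

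Genes with the most similar pattern over the 4 arrays were listed as a description, by the root mean square difference of values centred on each gene's mean, among the genes above the 40th percentile of signal with a range of at least 0.5. Closest to Fcer2a were Gm14548 (0.0291), Sdc4, a heparan sulphate proteoglycan (0.0296), and Btk (0.0344). Closest to Fcgr2b were Gpd2, a mitochondrial glycerol phosphate dehydrogenase (0.00446), Alcam, an adhesion molecule (0.00979), and Cd79b, a signalling chain of the B cell receptor (0.0177). Closest to Fcgr3 were Lxn, a carboxypeptidase inhibitor (0.046), Rnase4, a secreted ribonuclease (0.0639), and Kif23, a mitotic kinesin (0.0663). These 3 shared the high value of TG mouse 2 (5.65, 6.88 and 5.42). Closest to Fcer1g were Dnajc12, a co-chaperone (0.0205), Cd68, a lysosomal protein of macrophages (0.0218), and Zfp654 (0.0245). With 4 arrays such likeness rests on few values.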

How the data were processed

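B cell RNA of 2 TG and 2 WT mice was hybridised to Affymetrix arrays after biotin labelling with a 3′ kit, per the labels' protocols. The authors deposited log2 signals, 1 per probe set and array. Background correction, normalization and summarisation are not given in the sources used here, and the scale was inferred from the range of the values. No detection call was used, and the number of arrays limits the precision.

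The 104 control probe sets were left out, and 45037 were fitted with limma 3.58.1 in R 4.3.3 (moderated test, two-sided, Benjamini-Hochberg adjustment over all of them, threshold 0.05, 2 residual and 2.69 prior degrees of freedom). A trial on simulated data drew both groups from the model's own prior with equal spread. It therefore does not check the wider spread of the TG pair. With 2 against 2 mice an exact permutation test cannot give a p below 0.333. Intervals are 95% from the moderated fit. Differences are TG minus WT. The platform annotation named 1 gene for 28898 probe sets, several for 551 and none for 15588, and 28689 of the 28898 matched RefSeq by Entrez ID. Promoter and microRNA sequences are RefSeq's for GRCm38.p6, with a window for all 7 members, and the deposited values name no build. Listed genes without a single-gene probe set were not analysed here.

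The members and lists were chosen with earlier results of these data known. The named genes were the 7 members, all measured other Fc receptors, at most 4 genes by smallest p of each related list, the 3 closest patterns for 4 members, and sex-linked genes as a check. Further markers were named after their values were seen. Mouse numbers tie no TG mouse to a WT mouse, and the deviations of arrays with the same number were uncorrelated (0.014), so the fit had no block. Alternatives were quantile normalization, median centring, the replicate block, a filter on dim probe sets, trended robust variances, the mean of all probe sets and leaving out each array. The scale relative to B cell markers was added after the data were seen. In the limma fit, p-values and intervals combine variation between the mice of a group with a prior variance estimated over all probe sets. The prior held 2.69 degrees of freedom and the mice 2. These p-values and intervals therefore do not measure the spread of the mice alone. Figures were drawn with matplotlib 3.10.9.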

Additional observations from a re-analysis of the deposited data

How the results depend on the processing

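The count of probe sets past the threshold, 21 as deposited, depended on the processing. It was 870 after quantile normalization (402 higher, 468 lower), 614 after median centring (189 higher, 425 lower) and 51 with the filter on dim probe sets. Leaving out 1 array gave between 0 and 19110: 19110 without TG mouse 2, 4140 without TG mouse 1, and 0 in limma without WT mouse 1 or WT mouse 2 (1631 and 1576 at an unadjusted p under 0.05). None of the 7 receptors passed as deposited, 2 passed after quantile normalization (Fcer2a at -0.89, Fcgr2b at -0.86), 1 after median centring (Fcer2a at -0.96), and between 0 and 4 when 1 array was left out. All 7 kept their direction under every alternative except Fcgr3, which was -0.05 without TG mouse 2. The median of the myeloid members, 0.17 as deposited, was then -0.01, and over the arrays left out it ran from -0.01 to 0.26. Over the arrays left out, Fcer2a ran from -1.06 to -0.97, Fcgr2b from -1.28 to -0.74, Fcgr3 from -0.05 to 1.02 and Fcer1g from 0.04 to 0.42. The mouse numbers as a replicate block left 15 probe sets and no receptor past the threshold (Fcer2a limma adjusted p = 0.18, Fcgr2b 0.223). Trended robust variances and the filter changed no call among the receptors, and neither did the mean of all probe sets. The cause of these shifts was not tested. The low signals of Fcgr4 and Fcgr1 limit what their small differences can show.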
